A study of Mus musculus with 24 samples.

Results

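This is a comparison of 1 hour of the day in the liver of mice without the PAR bZip transcription factors: knockout liver at zeitgeber time 16 (ZT16, hours counted from lights on) against knockout liver at its neighbouring times, ZT12 and ZT20. It holds 2 libraries of ZT16 and 4 of the neighbours, 6 of the 24 libraries in the series. The hour was chosen by results of these data, namely the knockout levels of Slc22a26, Acot3 and other genes at ZT16 and its neighbours, so every difference between knockout ZT16 and its neighbours below is a description and carries no p-value. All 6 groups of 2 knockout libraries carry the genotype Hlf-/-/Dbp-/-/Tef-/-, and the 6 wild-type groups carry intact copies of the 3 genes. All mice were 12 to 16 weeks old and fed ad libitum (AL), and liver was sampled every 4 h from ZT04 to ZT24. Each group has 1 library whose name holds an I and 1 whose name holds a P, written below as set I and set P. The meaning of the letters is not in the labels, nor is it stated that a group's libraries are from different animals. The p-values therefore measure spread between libraries that may be technical only. Each value below is given for set I first and set P second.

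The 6 libraries held 14807940 to 17410682 counts, within the 14613001 to 19288322 of the whole series. The deleted genes were low at ZT16, as labelled. Tef had 16.0 and 14.3 CPM (counts scaled to a common library size) against at least 42.4 CPM in each wild-type library, Hlf had 2.25 and 2.70 CPM against at least 46.9 CPM, and Dbp had 0 counts. As a check of the tissue, 15 hepatocyte markers together took 86117 and 80873 CPM at ZT16 and 63237 to 86029 CPM at the neighbours, and none of the 15 was called different. Wild-type set I stands apart from the other libraries of the series in its Y-linked genes, for example Ddx3y, which lay between 2.96 and 60.9 CPM there and between 65.0 and 121 CPM in the 12 knockout libraries. In wild type, set I differed from set P outside the Y-linked genes too. For example, Xpo1 lay between 3.51 and 45.0 CPM in set I and between 45.9 and 53.0 CPM in set P. Differences between the letters correlated across genes between wild-type times, with r of 0.839 for ZT16 and ZT20. Xist was at most 1.34 CPM in all 24 libraries. The sex of the mice is not given in the labels, so female-biased and male-biased below are names of gene lists.

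PAR bZip proteins bind an AT-rich motif called the D-box, and the clock drives their abundance so that their targets rise and fall each day. In liver these targets include genes of lipid, bile acid and foreign-compound metabolism. Rodent liver also expresses many genes at unequal levels in males and females, under the control of the pulse pattern of growth hormone, its signal transducer STAT5 and the repressors Bcl6 and Cux2. Both genes that marked the hour belong to the female-biased class: Slc22a26 encodes an organic anion transporter of the SLC22 family, and Acot3 a peroxisomal enzyme that splits acyl-CoA esters into free fatty acid and CoA. Acot3 is also a target of PPAR-alpha, the nuclear receptor that switches on fatty acid oxidation in fasting.

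The promoters of the 2 markers are shown because these genes define the hour. They are the 250 bases before the RefSeq start (GRCm38.p6), 5′ to 3′ on the strand of the gene, and capitals mark a STAT5-type site (TTCNNNGAA, searched on both strands). The Slc22a26 window is chr19:7802668-7802917, minus strand, with the site first base at position -141 from the start, and the Acot3 window is chr12:84051894-84052143, plus strand, where neither this site nor a D-box was found.
Slc22a26: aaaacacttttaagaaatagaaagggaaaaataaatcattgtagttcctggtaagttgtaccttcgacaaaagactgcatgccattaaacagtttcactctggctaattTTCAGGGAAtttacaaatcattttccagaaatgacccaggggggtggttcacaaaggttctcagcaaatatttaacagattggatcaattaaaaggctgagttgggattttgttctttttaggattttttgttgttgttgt
Acot3: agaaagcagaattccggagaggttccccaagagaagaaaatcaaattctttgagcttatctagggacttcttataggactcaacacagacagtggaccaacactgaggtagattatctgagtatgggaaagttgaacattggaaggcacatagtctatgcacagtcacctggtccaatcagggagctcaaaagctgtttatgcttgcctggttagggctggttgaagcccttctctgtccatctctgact
The STAT5-type letters occur in 8.30% of the 32851 RefSeq windows of 300 bases (250 before to 50 after a start), in 7.15% of the windows of genes tested, in 8.33% of the 72 windows of genes called higher at ZT16 and in 3.23% of those called lower. The D-box (TTATGTAA, both strands), the motif of the deleted factors, occurs in 0.938% of all windows, in 0.631% of the windows of genes tested, in 4 of the 72 windows of genes called higher (5.56%) and in 0 of the 62 windows of genes called lower. Windows were matched for 56 of the 78 genes called higher and 51 of the 66 called lower. Because these 4 matches carry the motif of factors that the mice lack, they are printed below in 30 bases on the strand of each gene, with the D-box in capitals. The spans are chr8:93337423-93337452 for Ces1g (minus strand), chr19:7802641-7802670 for Slc22a26 (minus), chrX:73097210-73097239 for Xlr3a (minus) and chrX:73191974-73192003 for Xlr3b (plus), and the D-boxes start at position -232, 9, -133 and -194 from the start.
Ces1g: ggggagaaacaTTATGTAAgatgttccttg
Slc22a26: tgttcttgctaTTATGTAAgatagtggtcc
Xlr3a: atcagagatacTTACATAAggtgctgggca
Xlr3b: atcagagatacTTACATAAggagatgggca
Xlr3a and Xlr3b are near-identical copies, so they do not count as separate cases, and their read counts may have been split between them. E-box letters (CACGTG, both strands), which the clock activators bind, occur in 9.54% of the windows of genes tested, 8.33% of those called higher and 11.3% of those called lower. A match is a description of these letters and shows no binding.

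Slc22a26 (ENSMUSG00000053303, mm10 chromosome 19, 7781041 to 7802667, minus strand) was at 0.469 and 0.455 CPM at ZT12, 31.9 and 13.7 CPM at ZT16, and 1.78 and 1.30 CPM at ZT20. Both ZT16 libraries lay above all 4 neighbours and above the other 6 knockout libraries, where the highest value was 3.38 CPM. The mean at ZT16 was 22.7-fold that of the neighbours, 28.3-fold in set I and 15.6-fold in set P, and the log2 difference in the edgeR fit was 4.74 (SE 0.66). Acot3 (ENSMUSG00000021228, chromosome 12, 84052144 to 84060402, plus strand) was at 1.64 and 0.968 CPM at ZT12, 20.5 and 9.999 CPM at ZT16, and 0.738 and 0.616 CPM at ZT20. Again no library of another knockout time came near, the highest of the other 6 being 1.12 CPM. Its mean was 15.4-fold higher at ZT16, 17.2-fold in set I and 12.6-fold in set P (log2 difference 4.01, SE 0.41). In both genes set I had the higher ZT16 level and the larger fold.

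Over 15090 genes tested, 78 were called higher at knockout ZT16 than at its neighbours (0.517%) and 66 were called lower (0.437%), a call being an edgeR adjusted p under 0.05. The rule chose the hour on this contrast, so nothing is read from these counts. The counts of list members called below stand beside these shares of all genes tested. The median log2 difference was 1.03 over the genes called higher and −0.91 over those called lower, against 0.01 over all genes tested. Of the 78, 64 had both ZT16 libraries above all 4 neighbours, as had 10% of all genes tested, and 50 had both above the other 10 knockout libraries (4.35% of all genes). Of the 66, 65 had both ZT16 libraries below all 4 neighbours (10.1% of all genes) and 51 below the other 10 (4.96%). The number of calls depended on single libraries: without knockout ZT20 replicate 1 (set I) 0 genes were called in either direction (144 before, 0.954%), without ZT16 replicate 1 (set I) 11 were higher and 0 lower, without ZT20 replicate 2 there were 12 and 12, and without ZT12 replicate 1 there were 18 and 21. No gene among the 144 changed sign when a library was left out. With all 24 libraries in the fit 2 of the 78 calls and 0 of the 66 were kept.

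Read apart, the set letters pointed the same way for the called genes but differed in size. The set I difference was the larger in 62 of the 78 genes called higher and in 55 of the 66 called lower, against 58.2% of all genes. For genes called higher the median log2 difference of set I was 1.22 and that of set P 0.85, and for genes called lower they were −1.0 and −0.73. The plot of set I against set P shows Slc22a26, Acot3 and Cyp4a14 far out in both letters and some genes far out in set I alone. By the naming rule 5 genes were low in set I at ZT16 by at least 2 log2 units from the nearest neighbour library while set P lay within the neighbours' range, and no gene at the same level did so in set P. They are Saa1 and Saa2, which encode the acute-phase protein serum amyloid A, the urinary protein gene Mup7, Obp2a and Dab1. Saa1 was at 264 CPM in set I and 2067 CPM in set P at ZT16, and between 1241 and 2743 CPM at the neighbours. Mup7 was at 173 and 1673 CPM at ZT16, and between 1038 and 3784 CPM at the neighbours. Reads of the Saa and Mup families may be split between near-identical copies.

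**Figure D1:**
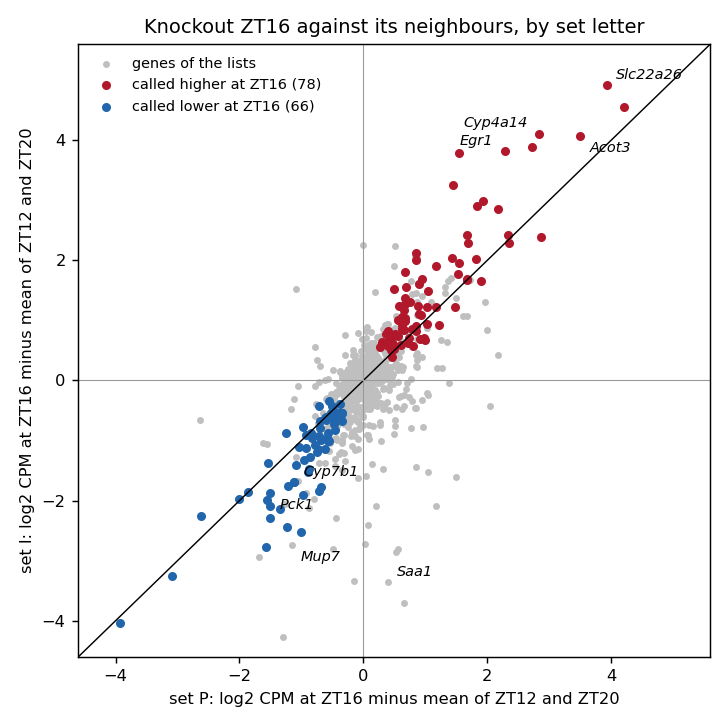
Each point is a gene, with the log2 CPM at knockout ZT16 minus the mean of ZT12 and ZT20 in set P (x axis) and in set I (y axis); red and blue mark the 78 genes called higher and the 66 called lower, grey the other genes of the lists, and the black line equality. Most red points lie above the line and most blue points below it, which is the larger difference in set I, and Saa1 lies low in set I only.

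Around the 2 markers stood other female-biased and PPAR-alpha genes, several of them in the same gene clusters. Of 24 female-biased liver genes tested (33 listed), 5 were called higher and 0 lower, against 0.517% and 0.437% of all genes tested. Of the 24, 18 were higher in both set letters (75.0%, against 33.8% of all genes tested), and the median log2 difference was 0.62. These figures include both markers, whose values chose the hour. Beside the markers, Cyp4a10 and Fmo2 were among the 5. Fmo2, a flavin monooxygenase gene on chromosome 1, went from 13.4 and 12.6 CPM at ZT12 to 25.5 and 18.2 CPM at ZT16 and to 7.19 and 10.3 CPM at ZT20. Slc22a27, an SLC22 gene in the same cluster on chromosome 19, was at 6.64 and 4.65 CPM at ZT16 and 1.08 to 2.05 CPM at the neighbours but was not called. Slc22a26 was the only SLC22 gene called of 15 tested, and the median of the family was −0.14. Cyp2a22, another P450 gene, was called with 2.91 and 1.67 CPM at ZT16 against 0.246 to 0.938 CPM at the neighbours.

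Acot3 lies in a row of thioesterase genes on chromosome 12. Acot1, the cytosolic enzyme, was at 5.63 and 5.75 CPM at ZT12, 33.3 and 16.1 CPM at ZT16, and 10.1 and 13.8 CPM at ZT20. The groups did not overlap, but the fold was 4.23 in set I and 1.65 in set P. Acot4 was at 83.2 and 52.6 CPM at ZT16 and 31.5 to 49.7 CPM at the neighbours, above all 4 but not called. Acot1 and Acot3 were the only genes called of 13 thioesterases tested, and reads of these similar copies may have been split between them.

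Of 41 genes of fatty acid oxidation and PPAR-alpha response 5 were called higher and 0 lower (0.517% and 0.437% of all genes tested), while the list's median was 0.05. The 5 were Acot1, Acot3, the omega-hydroxylases Cyp4a14 and Cyp4a10, and the peroxisomal thiolase Acaa1b. Acot3, a marker of the hour, and Cyp4a10 are counted in the female-biased list too. Cyp4a14 was at 158 and 56.0 CPM at ZT12, 599 and 255 CPM at ZT16, and 7.56 and 22.9 CPM at ZT20. The level had thus begun to climb at ZT12 and was low again 4 h after ZT16. Cyp4a10 was at 34.3 and 17.1 CPM at ZT16 and between 3.69 and 10.7 CPM at the neighbours. Its ZT16 levels were below every wild-type library, where it lay between 66.5 and 1562 CPM. Acaa1b was at 636 and 557 CPM against 365 to 476 CPM, a 1.45-fold higher mean. The mitochondrial oxidation genes of the list were not among those called.

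Nipal1 and Slc16a5 were among the 12 largest rises. Nipal1, a magnesium transporter, was at 3.11 and 1.88 CPM at ZT12, 23.5 and 10.7 CPM at ZT16, and 0.676 and 1.23 CPM at ZT20 (log2 difference 3.48, SE 0.47). Slc16a5, of the monocarboxylate transporter family, was at 7.91 and 7.12 CPM at ZT12, 43.8 and 20.5 CPM at ZT16, and 3.69 and 3.90 CPM at ZT20 (2.59, SE 0.28). The ZT16 libraries were in each case above all other knockout libraries. The antisense gene model Gm11695 overlaps the start of Slc16a5 and was called with it, and whether the authors counted by strand is not given in the sources used here.

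Male-biased genes lay on the other side. Of 30 tested (31 listed), 0 were called higher and 4 lower, against 0.517% and 0.437% of all genes tested. Of the 30, 21 were lower in both letters (70.0%, against 31.2% of all genes tested), and the median log2 difference was −0.50. The 4 were Cyp7b1, an oxysterol hydroxylase of bile acid synthesis, the steroid dehydrogenase gene Hsd3b5, and the complement genes C8a and C8b. Cyp7b1 was at 486 and 722 CPM at ZT12, 138 and 294 CPM at ZT16, and 407 and 563 CPM at ZT20, and its ZT16 libraries were the lowest of the 12 in the knockout. Hsd3b5 was at 73.4 and 67.1 CPM at ZT16 and between 119 and 162 CPM at the neighbours. C8a and C8b moved less, by log2 differences of −0.49 (SE 0.08) and −0.45 (SE 0.09). Of 22 genes of growth hormone signalling and liver sex factors 0 were called. Cux2, a repressor normally high in female liver, was at 2.64 and 1.48 CPM at ZT12, 3.79 and 2.01 CPM at ZT16, and 0.615 and 0.342 CPM at ZT20, so that ZT12 and ZT16 overlapped. The Y-linked Ddx3y overlapped between the groups, being at 85.8 and 104 CPM at ZT16 and 69.7 to 121 CPM at the neighbours.

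**Figure D2:**
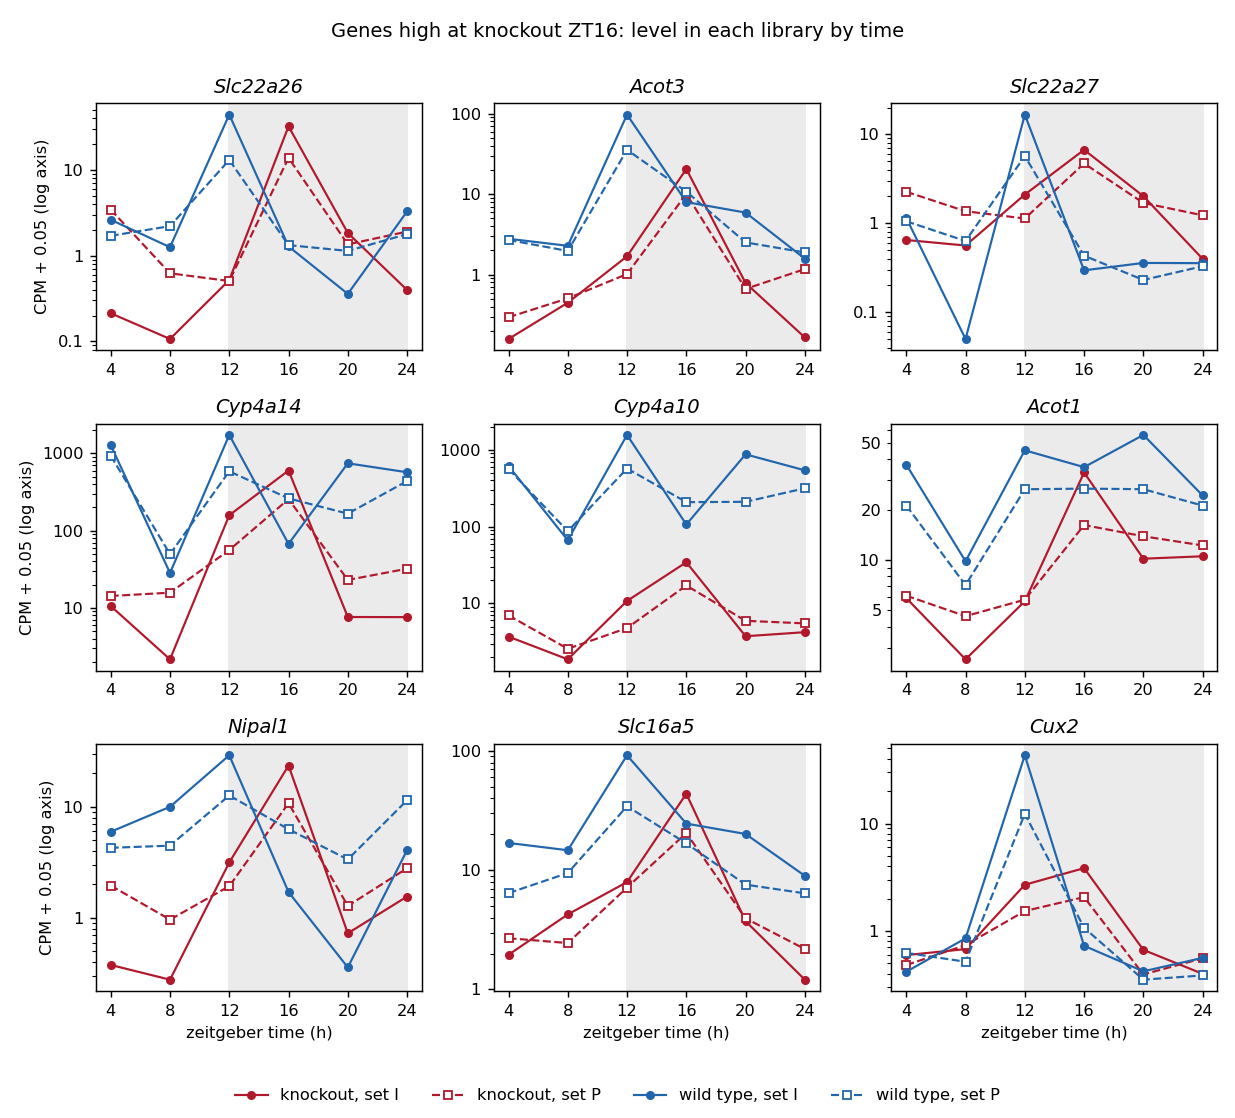
Level of 9 genes (CPM plus 0.05 on a log axis) against zeitgeber time in hours, 1 point per library, for knockout (red) and wild type (blue), set I solid and set P open and dashed; shading marks ZT12 to ZT24. In the knockout the points of Slc22a26, Acot3, Nipal1 and Slc16a5 peak at ZT16, whereas in the wild type the points of these genes and of Slc22a27 and Cux2 peak at ZT12 in both set letters. Cyp4a10, Cyp4a14 and Acot1 also peak at ZT16 in the knockout. In the wild type Acot1 is highest at ZT20 in set I (55.9 CPM) and level from ZT12 to ZT20 in set P (26.4, 26.7 and 26.5 CPM). Wild-type Cyp4a14 is highest at ZT12 in set I (1732 CPM) but at ZT04 in set P (933 CPM).

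The wild-type libraries took no part in choosing the hour, so they allow a test of the same contrast. In wild type, 0 of 15090 genes were called higher (0.00%) and 0 lower at ZT16 against ZT12 and ZT20 by edgeR, with 300 higher and 262 lower at an unadjusted p under 0.05, and 3 higher and 14 lower by DESeq2. With the set letter as a block the edgeR test also gave 0 and 0, though the labels do not state that the letters pair libraries. The genes called higher in the knockout had a wild-type median log2 difference of 0.28, against −0.02 over all genes tested. Of the 78, 50 had the same sign and 22 passed an unadjusted p under 0.05 with the same sign (28.2%, against 1.99% of all genes tested). Among these were the clock gene Arntl (1.48) and Clic3 (1.44). Another 5 (6.41%, against 1.74% of all genes tested) passed an unadjusted p under 0.05 with the opposite sign, among them Slc22a26 (−1.83), Cyp4a10 (−2.27) and Cyp4a14 (−2.14). Of the 66 genes called lower, 44 had the same sign in wild type, and 4 passed an unadjusted p under 0.05 with it (6.06%, against 1.74% of all genes tested), namely Slc25a25, Tle1, Slc38a2 and Pik3ap1. Another 2 (3.03%, against 1.99% of all genes tested) passed with the opposite sign, Hapln4 and Gm12405. No gene of either direction passed the adjusted test in wild type, so sameness of sign is a count only.

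For the 2 markers the opposite signs have a plain form in the levels, since wild-type ZT12 is part of that reference. The wild-type difference of Acot3 (−0.84) did not pass an unadjusted p under 0.05. For Cyp4a10 and Cyp4a14 wild-type ZT20 set I was high too, at 874 and 744 CPM, against 107 and 67.2 CPM in set I at ZT16. Slc22a26 was at 43.7 and 12.9 CPM in wild type at ZT12, and at 0.308 to 3.21 CPM in the other 10 wild-type libraries. Acot3 was at 97.3 and 35.5 CPM at wild-type ZT12, and at 1.53 to 10.7 CPM in the other 10. The 2 genes thus stood high 4 h earlier in wild type than in the knockout, and in both genotypes set I was above set P. A test of wild-type ZT12 against ZT08 and ZT16 was chosen after the data were seen. None of the knockout libraries is in it, but the wild-type values seen beforehand are, so its calls are a description without p-values. It called 5 genes higher (0.0331%) and 0 lower, among them Acot3 (log2 difference 3.91, SE 0.43) and Cux2 (5.23, SE 0.49). At an unadjusted p under 0.05 there were 567 higher (3.76%) and 397 lower (2.63%). The genes also called higher at knockout ZT16, Acot3 among them, were 2 of the 5 (40.0%) and 2 of the 78 (2.56%). With the set letter as a block the test called 44 genes higher (0.292%) and 12 lower (0.0795%), 0.371% in all. Then 4 of the 78 genes (5.13%) were called higher, among them Acot3, Slc22a26 (log2 difference 4.17, SE 0.53) and Slc16a5 (1.87, SE 0.24). Without the block Slc22a26 and Slc16a5 were not called. With it another 3 of the 78, Tjp3, Tubb2a and Dtx4, were called lower at wild-type ZT12. Without wild-type ZT12 replicate 1, or either library of ZT08 or ZT16, the unblocked test called 0 genes, and without ZT12 replicate 2 it called 10. Over all 78 genes the median log2 difference at wild-type ZT12 was −0.19, and 29 of the 78 were positive.

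By list, the 24 female-biased genes had median log2 differences of 0.62 in the knockout at ZT16, −0.65 in wild type at ZT16, and 1.95 in wild type at ZT12 against ZT08 and ZT16. The male-biased genes had medians of −0.50, 0.22 and −0.23. For the 41 PPAR-alpha and fatty acid oxidation genes they were 0.05, −0.25 and 0.48. In wild-type set P, with 1 library a time, Ddx3y lay between 82.1 and 106 CPM. Acot3 (35.5 CPM) and Slc22a26 (12.9 CPM) were highest there at ZT12 and Cyp4a14 at ZT04 (933 CPM). Acot1 was level there, at 26.4 CPM at ZT12, 26.7 CPM at ZT16 and 26.5 CPM at ZT20. The Y-linked genes and others such as Xpo1 varied in the wild-type set I libraries, and the part of this in these results was not tested.

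**Figure D3:**
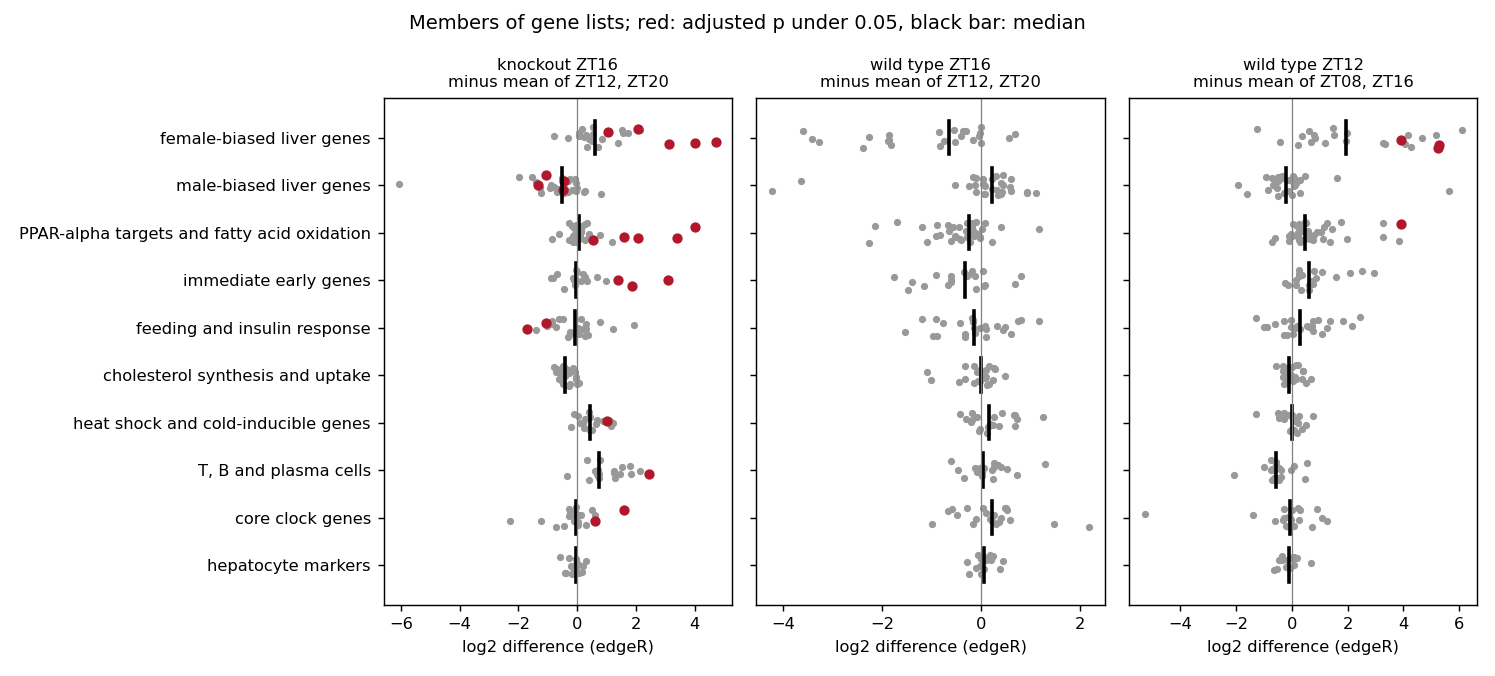
Log2 differences of the members of 10 gene lists (1 point per gene, jittered in height) for knockout ZT16, wild-type ZT16 and wild-type ZT12 against the times on either side; red marks an edgeR adjusted p under 0.05 without a block and the black bar the median. Female-biased genes lie to the right in the knockout at ZT16 (median 0.62), to the left in wild type at ZT16 (−0.65) and to the right in wild type at ZT12 (1.95).

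Of 25 genes of the feeding and insulin list 0 were called higher and 2 lower, Pck1 and Irs2, against 0.517% and 0.437% of all genes tested. The list's median was −0.08. Pck1, the enzyme that commits carbon to gluconeogenesis and that insulin shuts off, was at 2796 and 1769 CPM at ZT12, 465 and 496 CPM at ZT16, and 1044 and 1122 CPM at ZT20. Both ZT16 libraries were under all 4 neighbours, with 3.50-fold the ZT16 mean at the neighbours, but the lowest of the other 6 knockout libraries was lower still, at 302 CPM. Wild-type Pck1 was at 5231 and 2892 CPM at ZT12, 440 and 752 CPM at ZT16, and 350 and 575 CPM at ZT20, so there it did not return at ZT20. Irs2, an adaptor of the insulin receptor that fasting raises, was at 28.5 and 16.2 CPM at ZT12, 17.4 and 13.7 CPM at ZT16, and 51.1 and 41.8 CPM at ZT20, overlapping with ZT12. G6pc, the last step of glucose release, was at 209 and 229 CPM at ZT16 and 167 to 545 CPM at the neighbours, not called.

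Other genes among the 12 largest falls included Slc25a25, a mitochondrial ATP-Mg/phosphate carrier, at 324 and 242 CPM at ZT12, 90.2 and 140 CPM at ZT16, and 295 and 210 CPM at ZT20. Enho, which encodes the secreted peptide adropin, was at 7.03 and 10.7 CPM at ZT16 and 17.4 to 30.4 CPM at the neighbours. Serpina12, the gene for the secreted protein vaspin, was at 0.714 and 2.01 CPM against 3.11 to 7.01 CPM. Both are secreted factors tied to insulin sensitivity, and both ZT16 libraries of each lay under all 4 neighbours. The fatty acid-binding protein gene Fabp5 was at 17.1 and 19.1 CPM against 27.4 to 61.1 CPM, and the calpain gene Capn8 at 3.84 and 8.91 CPM against 15.6 to 29.4 CPM. The largest fall at this level, of Hapln4, a link protein of the extracellular matrix, was from 2.64 to 7.62 CPM at the neighbours to 1.15 and 1.44 CPM (log2 difference −1.96, SE 0.29). Lrtm1, Fmn2, Syt1 and Rapgef4os3 made up the 12, with log2 differences from −1.77 to −1.31. Rapgef4os3 is named as an opposite-strand transcript, and its reads could not be told apart from those of an overlapping gene if strand was not used.

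Of 30 genes of fatty acid and triglyceride synthesis 1 was called, Scd1, the desaturase that makes oleate. It was at 2409 and 2209 CPM at ZT12, 4540 and 5183 CPM at ZT16, and 2713 and 3786 CPM at ZT20. The letters were close to each other, 1.77-fold in set I and 1.73-fold in set P. Of 25 cholesterol synthesis and uptake genes 0 were called, while 24 of 25 had a negative log2 difference, as had 7249 of the 15090 genes tested. Their median was −0.42, with −0.86 in set I and −0.14 in set P, so the difference was the larger in set I. Acute-phase genes had the same imbalance, with 0 of 31 called and medians of −0.58 in set I and −0.09 in set P.

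Immediate early genes, which respond to growth factors and stress within minutes, gave 3 calls of 20, all higher (0.517% of all genes tested were called higher). Egr1, a zinc-finger transcription factor, was at 6.74 and 3.70 CPM at ZT12, 63.4 and 27.1 CPM at ZT16, and 2.83 and 8.08 CPM at ZT20. It was not confined to the hour, since ZT24 was at 45.6 and 25.2 CPM in the knockout and 47.9 and 30.8 CPM in wild type. The growth arrest gene Gadd45a was at 7.19 and 3.22 CPM at ZT16 and 1.35 to 2.87 CPM at the neighbours, but knockout ZT08 was at 4.38 and 4.57 CPM. Gadd45b was at 3.30 and 2.30 CPM at ZT16 and 0.512 to 1.23 CPM at the neighbours. The rest of the list did not follow, Fos being at 0.934 and 0.460 CPM at ZT16 and 0.683 to 2.34 CPM at the neighbours, and the list's median was −0.03. Of 20 heat shock and cold-inducible genes, Hsph1 alone was called, at 172 and 176 CPM against 62.8 to 117 CPM. Of the 20, 16 were higher in both letters (80.0%, against 33.8% of all genes tested), and the median was 0.43, with 0.17 in wild type.

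Some calls were steps and not peaks. Of the 78 genes called higher 14 overlapped with a neighbour, 10 had a ZT16 mean between the means of ZT12 and ZT20, and 25 were called between ZT12 and ZT20. In that contrast no ZT16 library enters, and 868 genes (5.75%) were called, 376 higher at ZT12 (2.49%) and 492 lower (3.26%). Its libraries are among those that the rule used, so these counts too are a description. Arntl, the clock activator BMAL1, was at 1.70 and 2.28 CPM at ZT12, 30.6 and 20.9 CPM at ZT16, and 37.0 and 36.2 CPM at ZT20 (ZT12 minus ZT20 −4.20 on the log2 scale). Celsr1, a cadherin of planar cell polarity, was at 3.22 and 3.76 CPM at ZT12, 27.0 and 24.7 CPM at ZT16, and 40.6 and 37.9 CPM at ZT20. Chka (choline kinase), Tubb2a (a tubulin), Dtx4 and Mreg followed the same course, low at ZT12 and high at both later times. Against ZT20 alone 10 of the 78 genes changed sign. Per2, the clock repressor, did peak at the hour, with 89.5 and 74.9 CPM at ZT16, 53.8 and 68.1 CPM at ZT12, and 47.7 and 47.2 CPM at ZT20. Arntl and Per2 were the genes called of 21 core clock genes.

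**Figure D4:**
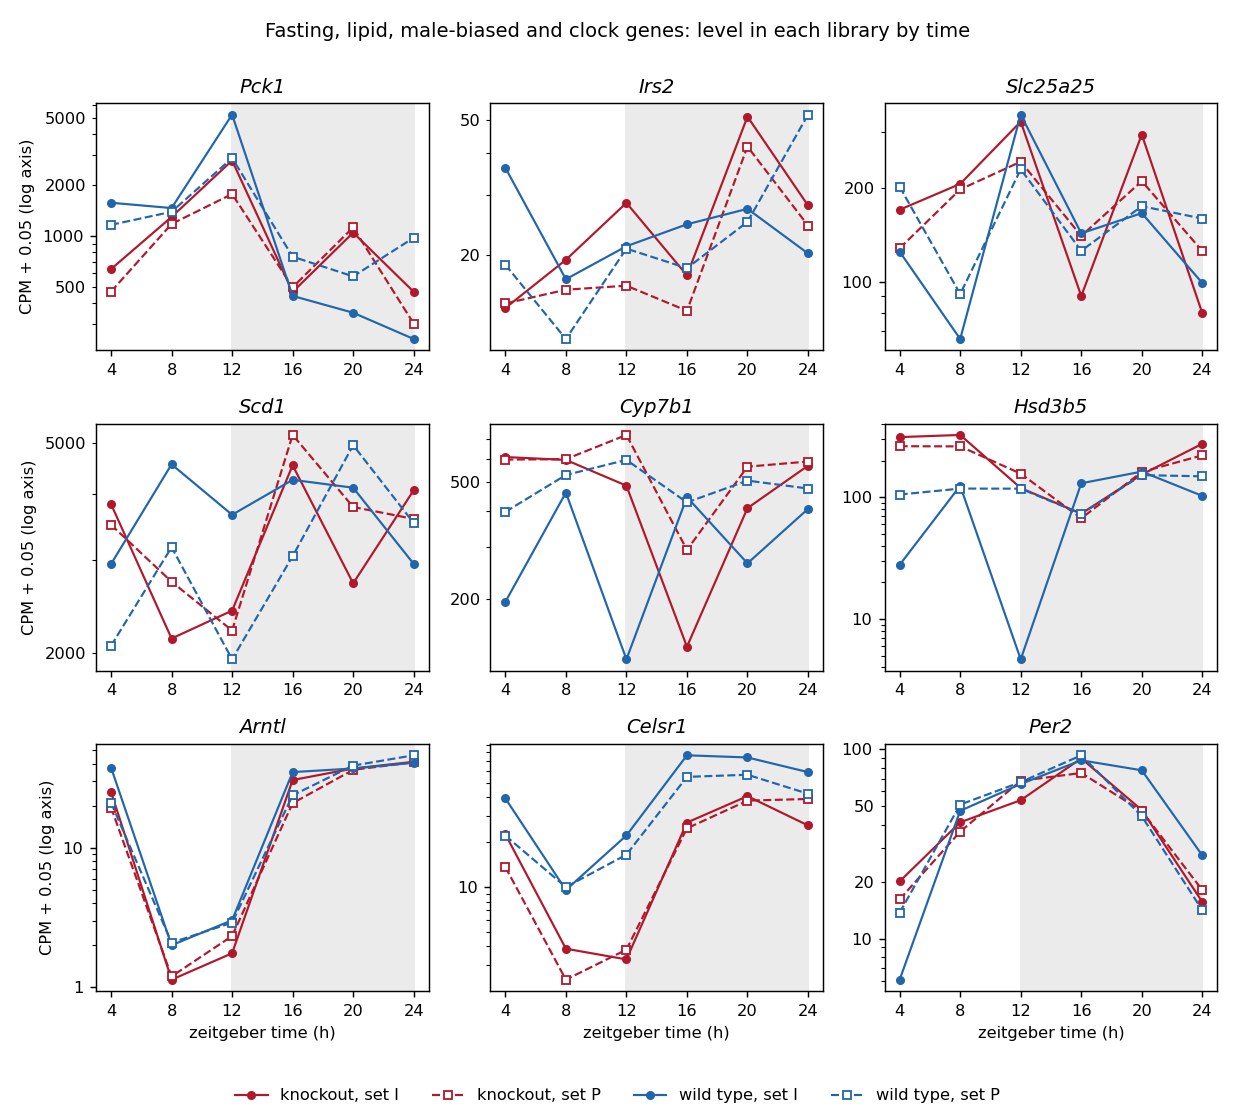
Level of 9 genes (CPM plus 0.05 on a log axis) against zeitgeber time in hours, 1 point per library, with colours and symbols by genotype and set letter as in the legend and shading from ZT12 to ZT24. Knockout Pck1, Slc25a25, Cyp7b1 and Hsd3b5 dip at ZT16 between higher points at ZT12 and ZT20, Scd1 and Per2 peak there, and Arntl and Celsr1 step up between ZT12 and ZT16 and stay high.

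A smooth 24 h rhythm that peaks at ZT16 also lies above the mean of its values 4 h to either side, so each gene was also set against a 24 h cosine curve with a separate term for ZT16. There 12 genes were called higher (0.0795%) and 10 lower (0.0663%), and 12 of the 78 genes called higher against the neighbours and 8 of the 66 called lower were among them. Slc22a26 departed from the curve by 5.13 on the log2 scale and Slc16a5 by 2.15. Acot3 departed by 3.28 and was not called. Per2, which peaked at the hour against its neighbours, departed by only 0.08 and was not called. Xlr3a departed by 2.87, Scd1 by 0.97 and the linker histone gene Hist1h1c by 1.13. Xlr3a was at 15.7 and 13.2 CPM at ZT16 and 0.938 to 6.50 CPM at the neighbours, but up to 16.3 CPM at other knockout times. On the low side Pck1 departed by −2.22, Irs2 by −1.45, Lpin2, a phosphatidate phosphatase of lipid synthesis, by −1.18, the amino acid transporter gene Slc38a2 by −0.84, the transcription factor gene Klf11 by −1.04 and the corepressor gene Tle1 by −0.68. Tle1 had 30.3 and 27.6 CPM at ZT16 and 42.9 to 52.0 CPM at the neighbours, and its ZT16 libraries were the lowest of the 12. Without ZT12 replicate 1, ZT16 replicate 1 or either ZT20 library this test called 0 genes.

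The difference between genotypes in the ZT16 contrast, which contains the knockout values that chose the hour, was called for 2 genes in the positive direction (0.0133%) and 2 in the negative (0.0133%), 0.0265% in all. Acot3 was among the positive ones, Hapln4 a negative one and the antisense gene model Gm12405 the other, named after its value was seen. In wild type Hapln4 stood high at ZT16, with 16.6 and 17.1 CPM against 5.88 to 12.5 CPM at ZT12 and ZT20. Leaving out any of the 6 knockout libraries other than ZT16 replicate 2, either wild-type ZT16 library or wild-type ZT20 replicate 1 left 0 positive calls.

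Markers of other cell types were read beside these results. Of 20 genes of T, B and plasma cells 1 was called, the B-cell receptor gene Cd79a, at 1.48 and 1.15 CPM against 0.0685 to 0.569 CPM, and 18 of the 20 were higher in both letters (90.0%, against 33.8% of all genes tested), with a median of 0.75. Summed, the list took 358 and 515 CPM at ZT16 and 202 to 381 CPM at the neighbours, so the ranges overlapped. Named after their values were seen, and in none of the lists, were the chemokine gene Ccl5 at 2.97 and 4.19 CPM against 0.821 to 1.31 CPM, Spn at 2.97 and 3.68 CPM against 0.958 to 1.59 CPM, and Il2rb at 5.11 and 5.4 CPM against 2.12 to 3.19 CPM. In bulk liver more cells of a type and more RNA per cell cannot be told apart, and the part of these cells in the results was not tested. The defining T-cell gene Cd3d was at 1.10 and 0.977 CPM at ZT16 and 0.184 to 1.02 CPM at the neighbours. Of 9 bile duct genes Spp1 was called lower, with 18.5 and 26.1 CPM against 35.2 to 53.7 CPM. None of the lists of Kupffer, endothelial, stellate, red blood cell, neutrophil, pancreatic, muscle, adipose or kidney genes had a called member. Of the 15 Kupffer and macrophage genes, 10 were higher in both letters (66.7%, against 33.8% of all genes tested) and 1 was lower in both, with a median of 0.18. Of the 8 neutrophil genes, 5 were higher in both letters (62.5%) and 0 lower in both, with a median of 0.47.

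In the lists of drug-metabolizing enzymes 0 of 27 P450 genes were called, though P450 genes outside that list were, among them Cyp2a22 and Cyp2d40 (log2 difference −0.77, SE 0.12). Of 40 conjugating enzymes Sult1a1 and Gstt3 were called higher and Ugt2b35 lower. Gstt3, a glutathione transferase, was at 59.0 and 64.9 CPM at ZT16 and 28.3 to 52.7 CPM at the neighbours, and Ugt2b35 was at 292 and 290 CPM against 356 to 594 CPM. Ces1g, a carboxylesterase whose promoter window held a D-box, was at 29.9 and 16.7 CPM against 5.78 to 12.5 CPM. ZT16 was not its highest knockout time, since ZT04 was at 27.3 and 36.1 CPM and ZT08 at 37.2 and 19.3 CPM. In wild type it lay between 57.7 and 203 CPM in every library. No gene was called in the lists of interferon response, unfolded protein response, NRF2 targets, cell cycle, amino acid breakdown, ribosomal proteins or the respiratory chain, whose medians lay between −0.07 and 0.15.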

How the data were processed

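Liver mRNA was sequenced from 24 libraries in 12 groups of 2 made, per the labels, with the TruSeq Stranded mRNA kit. The deposited values are raw counts, not normalized, for 54532 Ensembl genes. The submitters' processing notes list STAR 2.4.0i and the build mm10. How reads were assigned to genes, with which annotation and whether by strand, is not given in the sources used here, so overlapping, antisense and near-identical genes are uncertain.

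CPM values are counts over library sizes scaled with TMM (edgeR 4.0.16, R 4.3.3). Genes were kept with filterByExpr over all 24 libraries (minimum count 10), which left 15090. Tests were edgeR quasi-likelihood F-tests, with Benjamini-Hochberg adjustment over all genes and a threshold of 0.05. The knockout contrasts used the 12 knockout libraries with 6 group means, the wild-type contrasts the 12 wild-type libraries, and the genotype difference all 24. The curve was a 24 h sine and cosine, with ZT16 given its own term. Values by set letter are log2 CPM (prior count 2) at ZT16 minus the mean of ZT12 and ZT20 of that letter, with no test.

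Set letters were checked for pairing. Differences between the letters correlated across genes at r of 0.417 to 0.839 between wild-type times ZT08 to ZT20, all over 0.1, so the wild-type fits are also given with the letter as a block. Among knockout ZT12, ZT16 and ZT20 r was 0.179, 0.113 and 0.0891, not all over 0.1, which is not taken as pairing. The labels do not state pairing in either genotype, so the block in wild type rests on these correlations alone.

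The hour, the 41 gene lists and the naming rule were chosen with earlier results of these data known. The rule takes the 2 markers, the 12 largest called rises and falls at a mean log2 CPM of at least 1 with both ZT16 libraries beyond all 4 neighbours, up to 3 members per list, 6 rises and 6 falls against the curve, genes that moved in 1 set letter, 6 genes of the genotype difference, and the deleted and sex-linked genes, passing over gene model names. 1 gene is not reported here. Other named genes were chosen after their values were seen. Scripts were tested on simulated data. Alternatives were RLE scaling, DESeq2 1.42.0, no filter, the replicate block, other library sets and leaving out each library. Promoter sequences come from RefSeq (GRCm38.p6).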

Additional observations from a re-analysis of the deposited data

Results flagged for a closer look

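The ZT16 contrast of 3 genes is given here because it differed between knockout and wild type. The knockout values in that difference are those that chose the hour, so it is a description and no p-value is given. The knockout minus wild-type log2 difference was 4.84 for Acot3 (SE 0.75), a gene that marked the hour. It was −3.03 for Hapln4 (SE 0.42) and −4.20 for Gm12405 (SE 0.66), an antisense gene model at under 1.5 CPM in all libraries of these times.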

How the results depend on the processing

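The knockout contrast, with 78 genes higher and 66 lower, gave 161 and 219 with DESeq2, 591 and 506 with no filter on low counts, and 331 and 317 against ZT12 alone. With all 24 libraries in the fit it gave 2 and 0. RLE scaling, the 6 libraries of the 3 times alone, and ZT20 alone as reference left both counts within 1.5 times, with 77 and 66, 51 and 33, and 25 and 32 of the same genes kept. Leaving out single libraries gave 0 to 104 higher and 0 to 105 lower. The replicate block (set letter, a shared name only in the knockout) gave 212 and 177, and all 144 genes kept their call. Against ZT20 alone the log2 differences of Arntl (−0.51), Celsr1 (−0.60), Chka (−0.039), Cldn1 (−0.29), Dtx4 (−0.39), Mreg (−0.45), St5 (−0.58), Tjp3 (−0.30), Tmie (−0.12) and Tubb2a (−0.38) reversed, since these genes were higher at ZT20. The 12 and 10 genes beyond the 24 h curve became 91 and 139 with DESeq2, 432 and 407 with no filter, 24 and 23 with the replicate block, and 0 to 27 and 0 to 40 without single libraries. Wild-type ZT16, with 0 and 0, gave 3 and 14 with DESeq2, 1 higher with no filter, and 0 without any single library. The genotype difference, 2 and 2, became 14 and 4 with DESeq2, 119 and 67 with no filter, 3 and 1 with the replicate block, and 0 to 3 and 0 to 6 without single libraries. Knockout ZT12 against ZT20, 376 and 492, gave 767 and 833 with no filter, 582 and 718 with the replicate block, and 87 to 321 and 175 to 354 without single libraries. Wild-type ZT12, 5 and 0, gave 98 and 34 with DESeq2, 71 and 13 with no filter, 44 and 12 with the replicate block, and 0 to 10 and 0 without single libraries. The cause of these shifts was not tested. Depth limits the low genes: Cyp2a22 lay under 3 CPM in every knockout library.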
